A study of Homo sapiens with 6 samples.

Results

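Fc gamma receptors bind the constant part of IgG antibodies and tie antibody on a target cell to phagocytosis, cytokine release and killing by macrophages, neutrophils and NK cells. In the mouse, Fcgr1, Fcgr3 and Fcgr4 encode activating receptors that signal through the shared gamma chain encoded by Fcer1g, whose phosphorylated ITAM recruits the kinase Syk. Fcgr2b encodes the inhibitory receptor, which carries an ITIM in its own tail and restrains the activating ones on the same cell. The genes described here are these 6, chosen by Ensembl ID: Fcgr1 (ENSMUSG00000015947), Fcgr2b (ENSMUSG00000026656), Fcgr3 (ENSMUSG00000059498), Fcgr4 (ENSMUSG00000059089), Fcer1g (ENSMUSG00000058715) and Syk (ENSMUSG00000021457). All 6 are among the 77134 rows of the deposited table, and all 6 passed the filter on low counts, which 12637 genes passed.

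The samples were 6 subcutaneous tumours of A549, a human lung adenocarcinoma line, grown in BALB/c nude mice, with RNA of each tumour sequenced as 1 library. The 3 control tumours came from cells infected with the lentiviral vector pLV-CMV-EGFP-Neo, and the 3 overexpression tumours from cells infected with pLV-CMV-HIF1A-AS3-EGFP-Neo, so both groups carry EGFP and the Neo marker and the CMV promoter drives HIF1A-AS3 in the human cells only. HIF1A-AS3 is transcribed antisense at the human HIF1A gene, and the title of the series connects it to macrophage inactivation. Nude mice lack a thymus and so most T cells, but keep macrophages, neutrophils, NK cells and B cells. The ages of the mice, whether a stable line was 1 clone, and whether each tumour had its own mouse are not stated in the labels, so the p-values rest on the spread among these 6 tumours, part of which may be technical. Every row is a mouse gene, so the values describe RNA of host cells together with any A549 RNA that the quantifier placed on a mouse gene, a share that was not tested. In whole tumours, fewer cells of a type and less RNA per cell cannot be told apart.

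Totals ranged from 4167784 to 4769157 estimated counts per tumour, and the 6 genes together took 0.0170% to 0.0402% of them. Values are CPM, counts per 1000000 scaled by the total over the genes tested and by a TMM factor, which sets libraries to a common level over most genes. A single count stood for 0.211 to 0.284 CPM. Overexpression replicate 1 stood apart in its scaling, with the largest total and a TMM factor of 0.742 against 1.02 to 1.10 in the other 5 libraries. Its values therefore depend on the scaling more than those of any other tumour, and they are also given by library totals alone where its place among the 6 tumours differs. Levels of different genes are not compared, since the counts are not per length.

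Between the groups, none of the 6 genes passed the threshold (edgeR quasi-likelihood test, Benjamini-Hochberg adjusted p below 0.05 over all genes tested), and in none did the 3 overexpression tumours lie apart from the 3 controls. Across all genes tested, 0.0158% passed that threshold and 13.2% had groups that did not overlap. At an unadjusted p below 0.05 edgeR gave 0 of the 6 genes, against 6.29% of all genes. DESeq2 and limma-voom also called 0 of the 6, against 0.222% and 0.0554% of all genes. The log2 fold change, overexpression over control, was negative for 4 of the 6 genes and had a median of -0.18, where 49.4% of all genes were negative and the median over all genes was 0.0065.

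**Figure D1:**
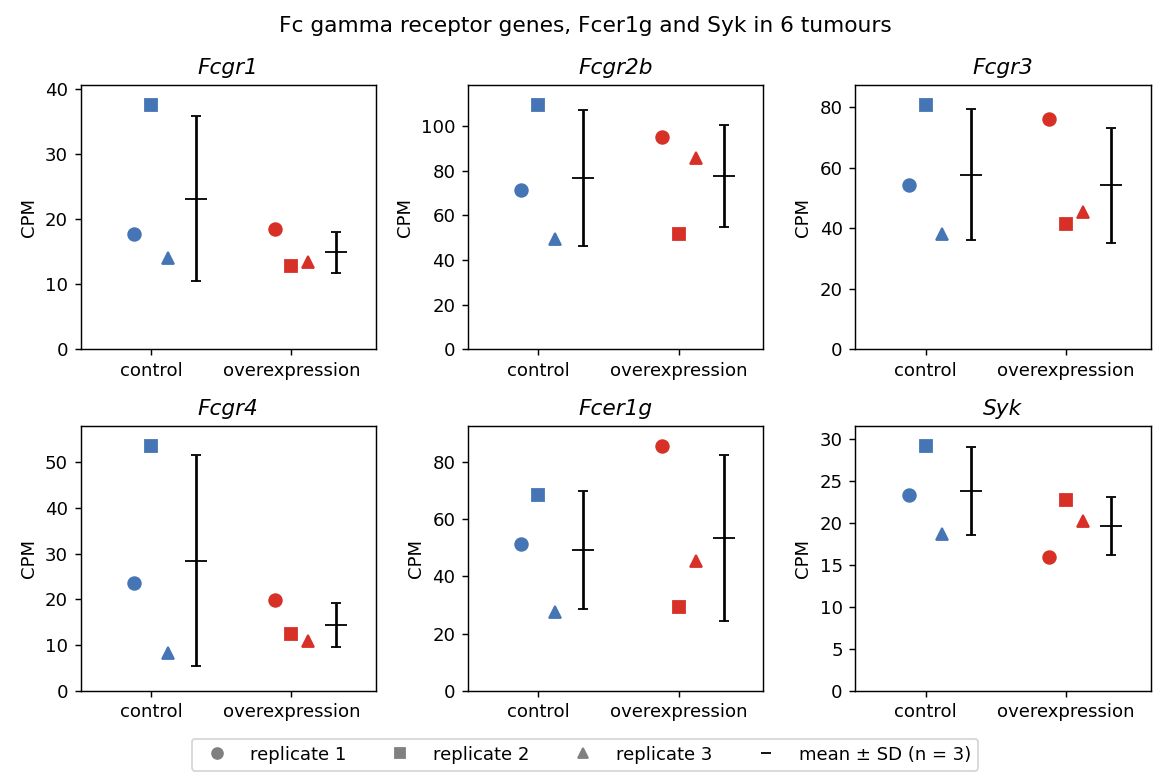
Level of each gene in CPM (linear axes from 0) in 3 control and 3 overexpression tumours; points are tumours, shaped by replicate number, and bars are the mean ± SD (n = 3). The groups overlap in all 6 panels, and control replicate 2 is the highest tumour for every gene but Fcer1g.

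Among the activating receptors, Fcgr1 encodes the high-affinity IgG receptor, a gene often used to mark macrophages and activated monocytes. It measured 17.7, 37.5 and 13.97 CPM in control replicates 1, 2 and 3, and 18.5, 12.9 and 13.3 CPM in overexpression replicates 1, 2 and 3. Control replicate 2 stood well above the other 5 tumours, which lay close together. The control mean was 23.1 ± 12.7 CPM and the overexpression mean 14.9 ± 3.11 CPM (SD, n = 3 each). In edgeR the log2 fold change was -0.64 (standard error 0.38), which is a fold of 0.644 with a 95% interval of 0.347 to 1.19, at an adjusted p of 0.71. Without control replicate 2 the log2 fold change was -0.09, and without control replicate 3 it was -0.89. Scaled by library totals alone, the 3 overexpression tumours, at 13.2 to 13.7 CPM, all lay below the 3 controls, at 15.3 to 40.1. Under that scaling 14.9% of all genes had groups that did not overlap, and the adjusted p of Fcgr1 was 0.73 in edgeR.

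Fcgr4 encodes an activating receptor of intermediate affinity that binds IgG2a and IgG2b and is found on macrophages, monocytes and neutrophils. Its levels were 23.6, 53.6 and 8.17 CPM in control replicates 1, 2 and 3, and 19.9, 12.4 and 10.8 CPM in overexpression replicates 1, 2 and 3. The controls held both the highest and the lowest tumour, 6.57-fold apart, and the 3 overexpression tumours all lay between control replicates 1 and 3. This control range was the widest of the 6 genes, and it exceeded counting error, with 237 counts in control replicate 2 (exact 95% Poisson interval 208 to 269) and 38 in control replicate 3 (26.9 to 52.2). Means were 28.4 ± 23.1 CPM and 14.4 ± 4.84 CPM in control and overexpression tumours (SD, n = 3 each). For Fcgr4 edgeR gave a log2 fold change of -0.99 (standard error 0.61), a fold of 0.504 with a 95% interval of 0.188 to 1.35, at an adjusted p of 0.72. It was the most negative of the 6 and also the least precise. Leaving out control replicate 2 brought it to -0.15, and leaving out control replicate 3 brought it to -1.43.

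Fcgr3 encodes the low-affinity activating receptor, which is carried by macrophages, neutrophils and NK cells. It stood at 54.3, 81.0 and 38.0 CPM in control replicates 1, 2 and 3, and at 76.1, 41.3 and 45.3 CPM in overexpression replicates 1, 2 and 3. The groups covered nearly the same range, with the highest and the lowest tumour both controls. By library totals alone overexpression replicate 1 ranked 3 of 6 and not 2, at 56.5 CPM. Its log2 fold change was -0.09 (standard error 0.34), and the 95% interval of the fold ran from 0.547 to 1.61 (adjusted p = 0.95 in edgeR). Without control replicate 2 the log2 fold change of Fcgr3 was 0.23, so its sign rested on that tumour among others.

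Fcgr2b, the inhibitory receptor of macrophages and B cells, was at 71.6, 109.7 and 49.4 CPM in control replicates 1, 2 and 3. In overexpression replicates 1, 2 and 3 it was at 95.1, 51.8 and 85.8 CPM. All 3 overexpression tumours lay inside the control range in TMM-scaled CPM. By library totals alone overexpression replicate 2, at 53.1 CPM, lay just below the lowest control, at 54.3, and overexpression replicate 1 ranked 4 of 6 and not 2, at 70.6. The means were nearly equal, at 76.9 ± 30.5 CPM and 77.6 ± 22.8 CPM (SD, n = 3 each), and edgeR gave a log2 fold change of 0.01 (standard error 0.34) at an adjusted p of 0.99. The 95% interval of the fold was 0.588 to 1.73. Scaling by library totals turned the log2 fold change to -0.24, a scaling that also moved the median over all genes to -0.21.

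The estimates of Fcgr2b and Fcgr3 were non-whole (more than 0.001 from a whole number) in 6 of 6 tumours, while those of Fcgr1 and Fcgr4 were whole in all 6. Fcgr2b and Fcgr3 are close relatives with similar extracellular domains. A non-whole estimate can arise where reads are divided between genes, so the counts of these 2 genes are uncertain. Their summed estimates were also non-whole, at 581.7, 842.4 and 406.7 counts in control replicates 1, 2 and 3. In overexpression replicates 1, 2 and 3 the summed estimates were 602.7, 442.1 and 570.2 counts. Whether reads were divided within this pair or with other genes was not tested. Estimates of Syk were non-whole in 4 tumours and those of Fcer1g in 2. A split within the pair leaves the sum of Fcgr2b and Fcgr3 unchanged, but a division with other genes need not. This sum was 125.8, 190.7 and 87.5 CPM in control replicates 1, 2 and 3. In overexpression replicates 1, 2 and 3 it was 171.3, 93.1 and 131.1 CPM. By library totals alone the sum was 138.1, 203.4 and 96.0 CPM in controls and 127.1, 95.4 and 134.2 CPM in overexpression tumours, so the order of overexpression replicates 1 and 3 turned with the scaling. The sum averaged 134.7 ± 52.2 CPM over the controls and 131.8 ± 39.1 CPM over the overexpression tumours (SD, n = 3 each).

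**Figure D2:**
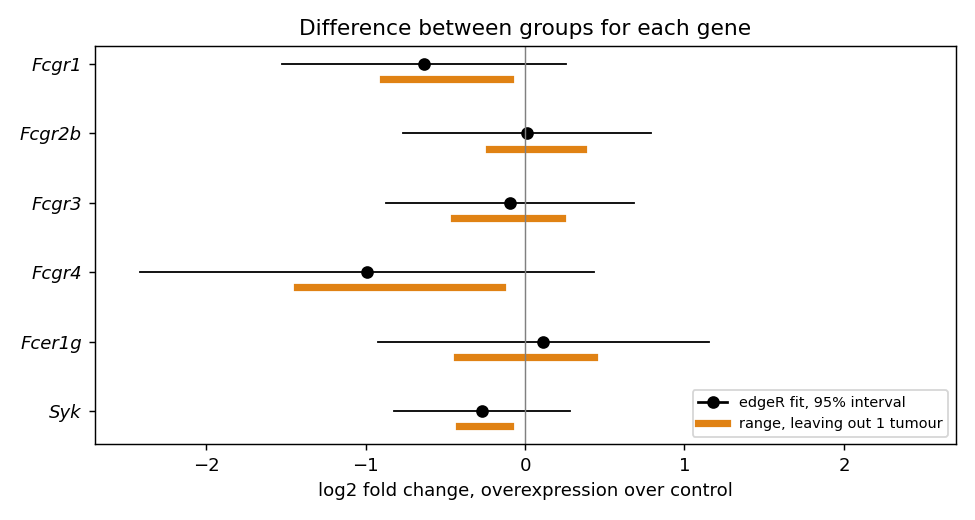
Log2 fold change, overexpression over control, of each gene from edgeR (points) with its 95% interval (black lines) and the range of values when 1 tumour at a time is left out (orange bars). Each of the 6 intervals crosses 0, and the orange bars of Fcgr1, Fcgr4 and Syk stay below 0 while those of Fcgr2b, Fcgr3 and Fcer1g cross it.

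Fcer1g encodes the gamma chain that the activating receptors need for surface expression and signalling, and that the high-affinity IgE receptor and other immune receptors also use. Its levels were 51.5, 68.5 and 27.5 CPM in control replicates 1, 2 and 3, and 85.8, 29.3 and 45.3 CPM in overexpression replicates 1, 2 and 3. Here the highest tumour was overexpression replicate 1 and the lowest control replicate 3. By library totals alone, overexpression replicate 1 came second, at 63.7 CPM after control replicate 2 at 73.1, and overexpression replicate 2 and control replicate 3 were the lowest, at 29.99 and 30.2. Its log2 fold change was 0.12 (standard error 0.45), and the fold had a 95% interval of 0.527 to 2.23 (adjusted p = 0.96 in edgeR). It was -0.19 by library totals, -0.43 without overexpression replicate 1 and 0.44 without control replicate 2.

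Syk encodes the tyrosine kinase that docks on the phosphorylated gamma chain, and B cells use it too, below their antigen receptor. It measured 23.4, 29.2 and 18.7 CPM in control replicates 1, 2 and 3, and 15.9, 22.8 and 20.2 CPM in overexpression replicates 1, 2 and 3. Syk varied least among the controls: the highest stood 1.56-fold above the lowest, against 2.13-fold to 6.57-fold for the other 5 genes, and 1.52-fold against 2.07-fold to 6.38-fold by library totals. Over all 6 tumours this order depended on the scaling, since Syk ranged 1.83-fold in TMM-scaled CPM and 2.64-fold by library totals, where Fcgr3 ranged 2.07-fold. The control mean was 23.7 ± 5.25 CPM and the overexpression mean 19.6 ± 3.47 CPM (SD, n = 3 each). The log2 fold change was -0.27 (standard error 0.24), and the fold of 0.830 had a 95% interval of 0.567 to 1.22 (adjusted p = 0.79 in edgeR). Leaving out control replicate 2 brought the log2 fold change to -0.09.

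For each of the 6 genes the gap between the highest and the lowest control was wider than the gap between the group means. Control replicate 2 was the highest of the 6 tumours for 5 of the 6 genes and second for Fcer1g, and by library totals it was the highest for all 6. Control replicate 3 was the lowest for 4 genes: Fcgr2b, Fcgr3, Fcgr4 and Fcer1g. By library totals it was the lowest for 2, Fcgr3 and Fcgr4, and overexpression replicate 2 was the lowest for 3. All 6 genes had the same order over the 3 controls. In overexpression replicates 1 and 3 the receptors lay on both sides of their control means. In replicate 1 the difference from the control mean in log2 CPM was 0.38 for Fcgr2b, 0.46 for Fcgr3, -0.19 for Fcgr1 and -0.14 for Fcgr4. In replicate 3 it was 0.23 for Fcgr2b, -0.28 for Fcgr3, -0.64 for Fcgr1 and -0.99 for Fcgr4. The receptors also spread within the controls. Fcgr4 was at 1.27 in control replicate 2, against 0.55 to 0.82 for the other receptors. In control replicate 3 it was at -1.38, against -0.58 to -0.53 for the others. Control replicate 1 had receptors on both sides, with Fcgr1 at -0.24 and Fcgr4 at 0.10. The positive signs in overexpression replicate 1 depend on the scaling. By library totals alone Fcgr2b was at 70.6 CPM there, against 78.6, 117.0 and 54.3 in control replicates 1, 2 and 3. Fcgr3 was at 56.5 CPM there, against 59.6, 86.4 and 41.8 in the same controls. Syk went against its partner chain in overexpression replicate 1, where Fcer1g was at its highest, 0.89 above its control mean, and Syk at its lowest, at -0.54. The ratio of Syk to Fcer1g counts was 0.185 in that tumour and 0.426 to 0.777 in the other 5, and this ratio within a library does not depend on the scaling.

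**Figure D3:**
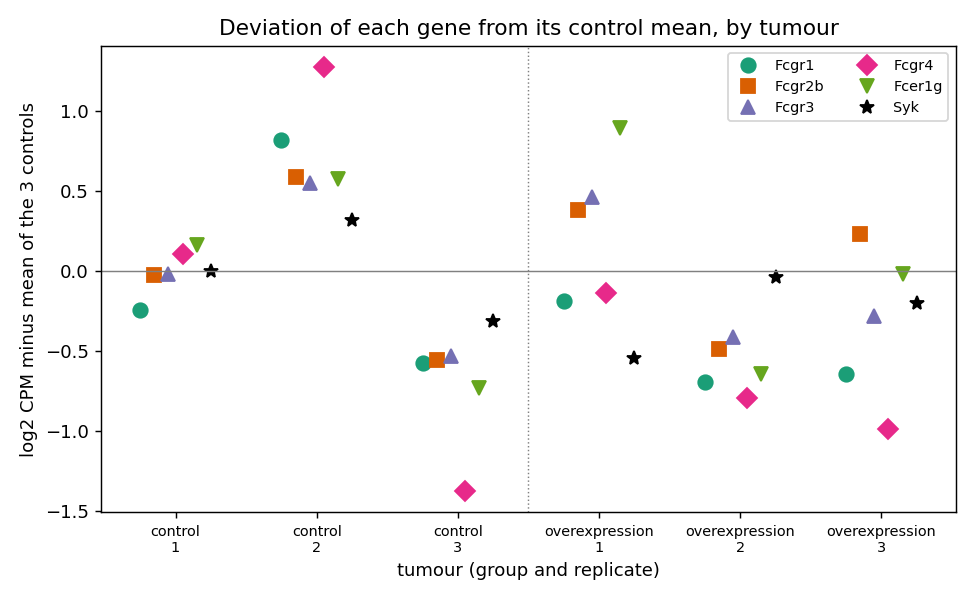
Log2 CPM of each gene minus the mean of the 3 controls (vertical axis), for each tumour; each symbol is a gene, set side by side within a tumour. All 6 symbols lie above 0 in control replicate 2 and below 0 in control replicate 3. The spread between genes is wide in overexpression replicates 1 and 3, and Fcgr4 also lies apart from the other genes in control replicates 2 and 3.

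Ratios of activating to inhibitory receptor counts within a tumour, which do not depend on library scaling, were compared between tumours. The counts of Fcgr1, Fcgr3 and Fcgr4 together, divided by those of Fcgr2b, gave 1.34, 1.57 and 1.21 in control replicates 1, 2 and 3 and 1.20, 1.28 and 0.811 in overexpression replicates 1, 2 and 3. Overexpression replicate 3 had the lowest ratio of all tumours, and overexpression replicate 2 lay within the control range. Since counts are not per length, the ratio does not show which kind of receptor was more abundant in a tumour. The ratio averaged 1.37 ± 0.180 over the controls and 1.10 ± 0.252 over the overexpression tumours (SD, n = 3 each), a mean difference of -0.34 in log2 ratio with a standard deviation of 0.29 within groups. Without overexpression replicate 3 that difference was -0.14. No test was made on the ratio, since the genes were chosen with earlier results of these data known.

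By single receptor, the ratio of Fcgr1 to Fcgr2b counts was 0.248, 0.342 and 0.282 in control replicates 1, 2 and 3. It was 0.194, 0.248 and 0.156 in overexpression replicates 1, 2 and 3. The lowest control, at 0.247985, lay only just above the highest overexpression tumour, at 0.247839, and no test was made on this ratio. The ratio of Fcgr3 to Fcgr2b was the steadiest, at 0.737 to 0.799 in 5 tumours, and the exception was overexpression replicate 3 at 0.530. Both genes had non-whole estimates in that tumour as in the rest. The ratio of Fcgr4 to Fcgr2b ranged from 0.165 to 0.489 in controls and from 0.126 to 0.240 in overexpression tumours.

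As shares of the counts of the 4 receptor genes, Fcgr2b held 42.8%, 38.9% and 45.1% in control replicates 1, 2 and 3 and 45.4%, 43.8% and 55.3% in overexpression replicates 1, 2 and 3. The exact (Clopper-Pearson) 95% interval of the last, 51.4% to 59.1%, did not meet that of any other tumour, the highest of which ended at 49.5%. Fcgr4 held 14.1%, 19.0% and 7.45% in controls and 9.49%, 10.5% and 6.96% in overexpression tumours, in the same order of replicates. The interval of its share in control replicate 2, 16.9% to 21.3%, did not meet that of any other tumour, the highest of which ended at 16.8%. Fcgr1 held 10.6% to 13.3% in controls and 8.59% to 10.9% in overexpression tumours, and Fcgr3 held 28.7% to 34.7% and 29.2% to 36.3%. These intervals cover counting error only and compare single tumours, not the conditions. They leave out any division of reads between genes, and the tumours set apart here were picked as the extremes.

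**Figure D4:**
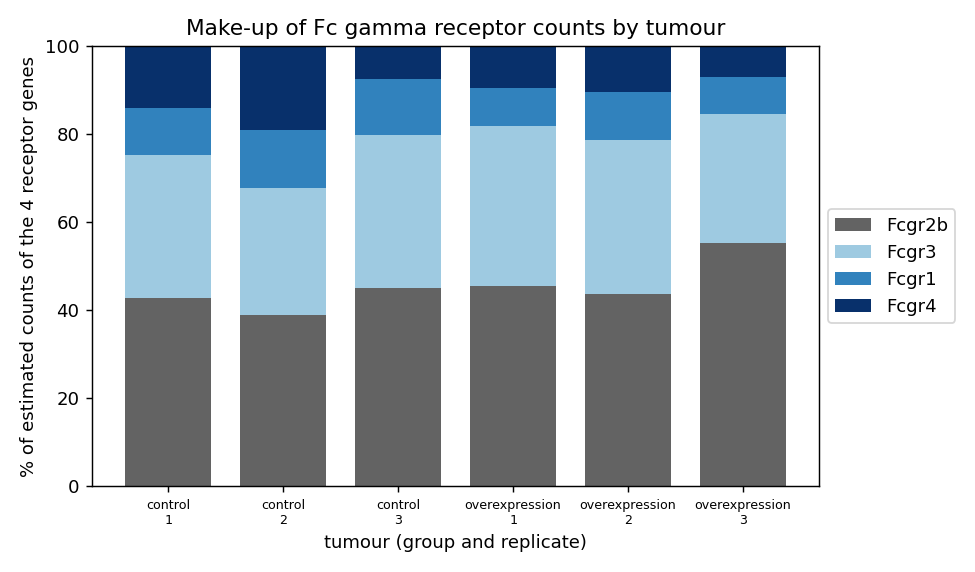
Share of each of the 4 receptor genes in their summed estimated counts (vertical axis, in percent), 1 bar per tumour. The grey Fcgr2b part reaches 55.3% in overexpression replicate 3 against 38.9% to 45.4% in the other 5 tumours, and the dark Fcgr4 part is tallest in control replicate 2.

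The gamma chain did not keep a fixed proportion to the receptors that use it. Fcer1g counts divided by the summed counts of Fcgr1, Fcgr3 and Fcgr4 were 0.538, 0.398 and 0.458 in control replicates 1, 2 and 3 and 0.750, 0.440 and 0.651 in overexpression replicates 1, 2 and 3. Overexpression replicates 1 and 3 lay above all 3 controls and replicate 2 inside their range. Control replicate 2, with the highest level of every receptor gene, had the lowest ratio of the 6 tumours.

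Among the other genes tested, those closest in pattern to the 6 were looked up by Pearson's r over the 6 tumours with the mean of the 6 standardised log2 CPM profiles. The closest was the gene with ID ENSMUSG00000060802.9, at r = 0.991, with 262 CPM in control replicate 3 and 1063 CPM in control replicate 2. The next was ENSMUSG00000047180.9, at r = 0.987, with 15.7 and 33.7 CPM in the same tumours. These r values are the highest of all genes tested over only 6 points that share library and depth, and they are given as a description. Of the 6 genes, Fcgr4 followed the mean of the other 5 most closely (r = 0.953 over the 6 tumours) and Syk least (r = 0.349).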

How the data were processed

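RNA of 6 tumours was measured by RNA-seq, 1 library each, and grouped by title into 3 controls and 3 overexpression tumours. The authors deposited 1 table of estimated counts per mouse gene with no normalization, per the file header, with 1 column per tumour. Its name points to salmon, whose version and annotation no source used here gives. The submitters' processing notes name the build mm10 and the tools HISAT2 2.2.1, featureCounts 2.0.6, Trimmomatic 0.39, edgeR and DESeq2, and assign no role to any.

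Counts were rounded to whole numbers. In R 4.3.3, rows were filtered with filterByExpr of edgeR 4.0.16, which left 12637 genes holding 99.5% of counts. Libraries were scaled with TMM and groups compared by edgeR's robust quasi-likelihood F-test with group as the only term, with Benjamini-Hochberg adjustment over all genes tested. Standard errors were obtained by dividing the log2 fold change by √F. Log2 CPM used a prior count of 2. A count of 0 would allow up to 3 counts, or 0.632 to 0.852 CPM, and no gene described was at 0. Intervals on counts cover counting error only. Fits were tested on simulated data. Alternatives were DESeq2 1.42.0, limma-voom (limma 3.58.1), other scalings and filters, a replicate block and leaving out each tumour.

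The genes and lists were chosen with earlier results of these data known. The rule for named genes took the 6 genes whatever their values and the genes closest to them in pattern, at most 2 by ID. The table pairs no ID with a name, and 0 of its IDs matched the name tables used, which are human. Gene names are those of the rule, and gene positions, sequences, lists of other Fc receptors, immunoglobulins, Syk effectors, phagocytosis genes and Reactome lists, and markers of macrophages, other leukocytes and stroma were not analysed here.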

Additional observations from a re-analysis of the deposited data

How the results depend on the processing

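None of the 6 genes passed the threshold in any of 13 alternatives: DESeq2, limma-voom, DESeq2 size factors, library totals, no filter, a mean of at least 5 CPM, the replicate block and leaving out each tumour. The lowest adjusted p was 0.43, for Syk without overexpression replicate 2 (edgeR, unadjusted p 0.18). In that fit 20.5% of all genes had an unadjusted p below 0.05, against 6.29% with all 6 tumours, which lowers adjusted p-values generally. The number of genes past the threshold among all genes, 2 in edgeR, was 28 with DESeq2, 7 with limma-voom, 4 with library totals, 14 with no filter and 0 with the replicate block. It was 0 to 14 with 1 tumour left out. The log2 fold changes of Fcgr1, Fcgr4 and Syk were negative in all 13 alternatives, and with 1 tumour left out they ran from -0.89 to -0.09, from -1.43 to -0.15 and from -0.41 to -0.09. Those of Fcgr2b, Fcgr3 and Fcer1g changed sign: leaving out 1 tumour gave -0.22 to 0.36 for Fcgr2b, -0.45 to 0.23 for Fcgr3 and -0.43 to 0.44 for Fcer1g, and library totals gave -0.24 for Fcgr2b and -0.19 for Fcer1g, where the median of all genes was -0.21. An unadjusted p below 0.05 was found in 2 of the 13: for Fcgr1 with library totals (edgeR, adjusted p 0.73; 5.53% of all genes had one) and for 2 genes, Fcgr1 and Fcgr4, without control replicate 3 (edgeR, adjusted p 1.00; 3.31% of all genes).

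The difference in log2 ratio of activating to inhibitory counts, -0.34, was -0.56 with Fcgr1 alone, -0.12 with Fcgr3 alone, -0.69 with Fcgr4 alone and -0.65 with Fcgr1 and Fcgr4, an alternative chosen after seeing the data, as was leaving out 1 tumour, which gave -0.47 to -0.14. Same-numbered tumours did not deviate together (r across genes -0.09, -0.34 and -0.10), and the labels say nothing of pairs. With the replicate block the log2 fold changes were -0.52 for Fcgr1, -0.67 for Fcgr4 and -0.26 for Syk. Alternatives for the gene lists were not run, since the lists could not be matched. With 38 to 485 counts per gene and tumour, the exact Poisson intervals of the highest and the lowest count did not meet for any of the 6 genes. Picking the extremes of 6 tumours favours such a gap, and the counts were not scaled for depth.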
